A study of Mus musculus with 3 samples.

Results

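Mature follicular B cells are the resting, recirculating B cells of blood, spleen and lymph nodes. Here they were taken as B cell barcodes with at least 1 molecule of Fcer2a (CD23, the low-affinity IgE receptor) and none of Vpreb3. Vpreb3 is a gene of B cell precursors that persists in immature and recently formed B cells. The rule found 1665 such cells among 22204 barcodes, 18885 of which passed the quality limits. It asked of each barcode at least 200 genes and at most 10% mitochondrial unique molecular identifiers (UMIs, the counted RNA molecules). It further asked for at least 3 UMIs of Cd79a and Cd79b (the signalling chains of the B cell receptor), at most 1 UMI of the Cd3 genes of T cells, and S100a8 and S100a9 (neutrophil genes) below 3% of UMIs. Lastly, the kappa light chain gene Igkc had to be at or above the lambda genes, the genes Bhlhe41, Nid1 and Ccdc28b of B-1 cells could hold at most 1 UMI, and 6 interferon-induced genes at most 2. These genes chose the cells, so their levels are given as description and with no test.

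The study measured blood leukocytes of C57/BL6J mice by 10x droplet sequencing of the 3′ ends of RNA, after red cells had been lysed. Each of 3 libraries pooled the leukocytes of 3 mice, 1 library for each of the groups Con (0 h), SD24h (24 h of sleep deprivation) and SD48h (48 h). The barcodes of the joint matrix end in 1, 2 or 3, and the labels do not say which group an ending stands for. The endings were therefore left unassigned: none was taken as the control, no group was compared, and no order in time was read. Since each group is 1 library of pooled mice, differences between endings carry intervals for counting error only (95%), which cover neither mice nor preparations. Endings 1, 2 and 3 held 8815, 6648 and 6741 barcodes, and 61 barcode sequences occurred in more than 1 ending, none of them with a described cell in more than 1.

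The described cells numbered 1082, 260 and 323 in endings 1, 2 and 3. Their median depth was 3823.5, 3656 and 3420 UMIs per cell, and their median mitochondrial share was 6.83%, 6.40% and 6.05%. Ending 1 gave 4468042 summed UMIs against 1003694 and 1171596 in endings 2 and 3, so values of ending 1 are the most precise. A level below is the summed UMIs of a gene per 1000000 UMIs of all the described cells of an ending (CPM).

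Follicular B cells carry both IgM and IgD from 1 heavy chain gene by alternative splicing and present peptides on MHC class II. CD23 is one of the surface proteins that distinguish them from immature B cells. Circulating B cells also respond to glucocorticoid hormone, the adrenal steroid of the stress response, which acts through a receptor that binds DNA and is known to move lymphocytes between blood and bone marrow.

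The label was checked against the 5 other follicular markers, which the rule did not use but which were proposed with earlier results of these cells known. In cells thinned to 2000 UMIs each, which left out 35, 14 and 14 shallower described cells, the median cell held 4 of the 5. At least 3 were found in 90.3%, 91.1% and 88.7% of the described cells, in 85.5%, 82.7% and 83.0% of B cells with both Fcer2a and Vpreb3, in 68.5%, 77.5% and 81.1% of Vpreb3 B cells without Fcer2a, and in at most 0.108% of T cells in any ending. The markers were thus present in the great majority of the cells, and were also frequent in B cells outside the rule. Fcmr, the Fc receptor for IgM, stood at 938, 1017 and 967 CPM in the described cells and at 5.44, 2.94 and 2.48 CPM in T cells. Ighd, the constant region of IgD, stood at 1425, 1555 and 1507 CPM, and Mef2c, a transcription factor of B cell proliferation, at 1087, 1074 and 976 CPM. Fchsd2, a membrane-curving protein of endocytosis, stood at 537, 567 and 521 CPM, and H2-Ob, a chain of the MHC class II modulator H2-O, at 481, 473 and 432 CPM. None of these 5 differed between endings by a ratio whose lower bound reached 1.5.

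**Figure D1:**
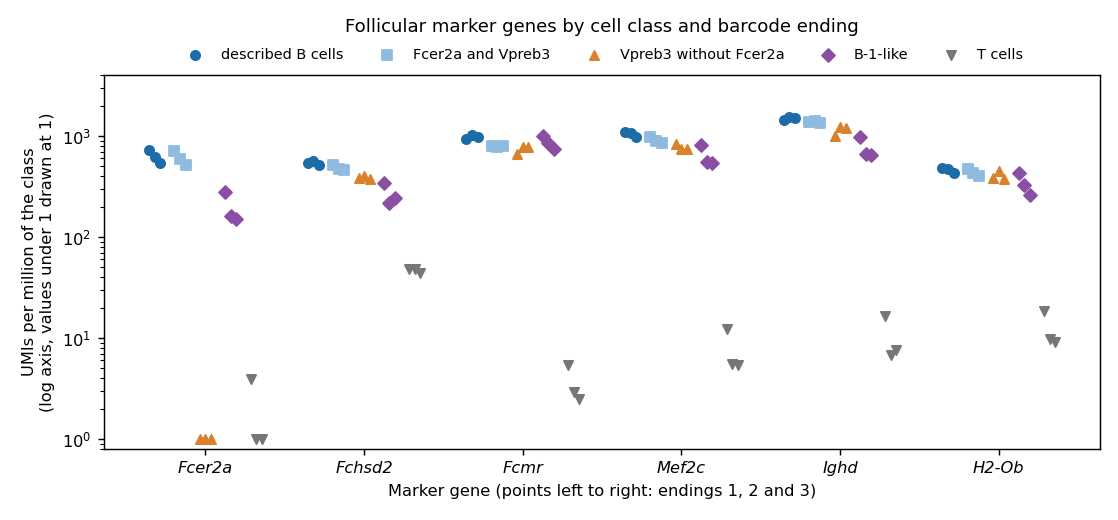
Level of the 6 follicular marker genes (CPM, log axis) in 5 cell classes, with 1 point per barcode ending. Fcmr, Mef2c and Ighd stood between 938 and 1555 CPM in the described B cells and below 20 CPM in T cells; Fcer2a is 0 by the rule in the Vpreb3 B cells without Fcer2a.

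Fcer2a itself stood at 723, 617 and 538 CPM in the described cells. Cells just inside the limit, with 1 Fcer2a UMI, made up 28.5%, 38.5% and 48.6% of them in endings 1, 2 and 3, and cells with 4 or more UMIs 31.7%, 20.8% and 11.8%. Just outside the limit on Vpreb3 lay the Fcer2a B cells with 1 Vpreb3 UMI, which numbered 800, 207 and 271. All B cells with Fcer2a and Vpreb3 that met the other limits numbered 1974, 623 and 863. They were more numerous than the described cells in each ending. Both genes were nearly absent from T cells: at 2000 UMIs, Fcer2a was found in 0.865%, 0% and 0.142% and Vpreb3 in 0.541%, 0.215% and 0.425% of them (T cell median depth 6073, 6247 and 6268 UMIs). A count of 0 for either gene at this depth does not show that a cell lacks the transcript.

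Nearly every described cell was an unswitched IgM and IgD cell. Ighm was found in 99.9%, 99.6% and 99.4% and Ighd in 97.8%, 97.7% and 97.2% of the cells. Ighd UMIs outnumbered Ighm UMIs in 11.3%, 14.2% and 10.2% of them. Ighd made up 32.7% (32.1 to 33.4), 32.9% (31.6 to 34.3) and 32.6% (31.4 to 33.9) of the summed Ighm and Ighd UMIs, values whose intervals overlap. In Vpreb3 B cells without Fcer2a this share was 18.9%, 24.6% and 25.7%, below the described cells in each ending. Class-switched transcripts, at 2 or more UMIs, exceeded Ighm and Ighd in 1, 0 and 1 described cells. Variable segments of the kappa and heavy chains were seen in only 10.2% to 12.7% of cells, too few to describe the repertoire.

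The described cells made up a larger part of the B cells in ending 1 than in endings 2 and 3. They were 1082 of 4303 B cell barcodes in ending 1 (25.1%, exact interval 23.9 to 26.5), 260 of 1415 in ending 2 (18.4%, 16.4 to 20.5) and 323 of 2008 in ending 3 (16.1%, 14.5 to 17.8). The interval of ending 1 lies above the other two, whose intervals overlap each other. Against Vpreb3 B cells without Fcer2a, which numbered 437, 229 and 390, there were 2.48 (2.21 to 2.77), 1.14 (0.947 to 1.36) and 0.828 (0.712 to 0.962) described cells for each. With every cell thinned to 2000 UMIs before the rule was applied, the share of B cells was 31.4%, 21.8% and 18.7%, and the ratio 2.11, 0.993 and 0.692, in the same order. In all B cell barcodes together, a set chosen without either gene, Fcer2a stood at 575, 430 and 356 CPM and Vpreb3 at 371, 479 and 514 CPM. In the undivided B cells Fcer2a was thus highest and Vpreb3 lowest in ending 1. Both genes define the described cells, so these levels are not independent of the shares above. The median B cell depth was 3993, 3834 and 3638 UMIs, also highest in ending 1.

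**Figure D2:**
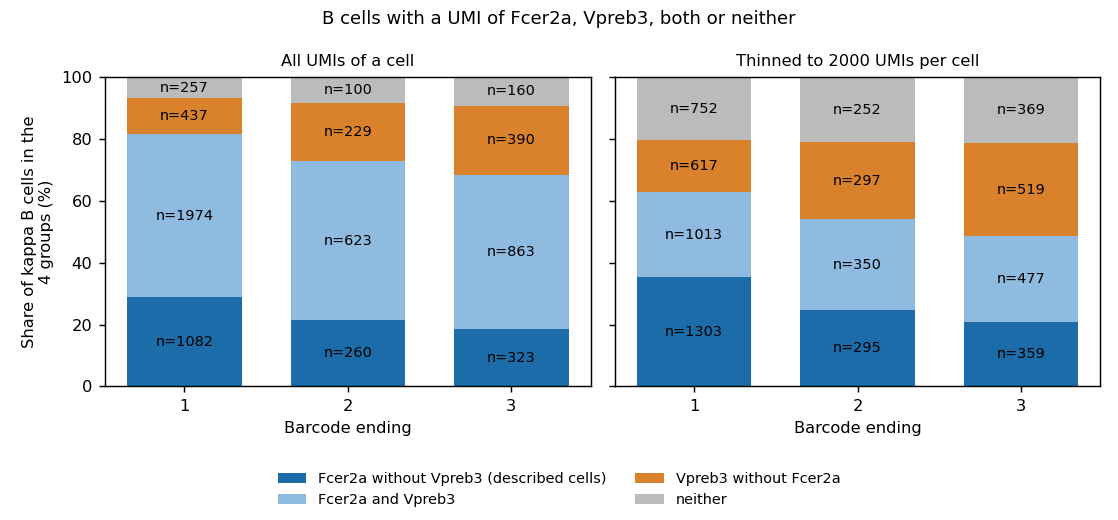
Shares (%) of kappa B cells outside the B-1 and interferon limits that held Fcer2a without Vpreb3, both, Vpreb3 alone or neither, by barcode ending, with cell numbers in the bars. The described cells were the lowest segment, with 1082, 260 and 323 cells on all UMIs, and 1303, 295 and 359 when the rule was applied to 2000 UMIs per cell.

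The described cells were next compared, within each ending, with Vpreb3 B cells without Fcer2a, the B cells on the opposite side of both limits of the rule. The larger class of B cells with both genes was not part of this comparison. UMIs were summed per class and ending and tested with edgeR's quasi-likelihood test, with the ending as a block and Benjamini-Hochberg adjustment. Of 7358 genes tested, which leave out the genes of the rule, 33 (0.448%) were higher and 53 (0.720%) lower in the described cells at an adjusted p under 0.05, and 83 of these 86 (1.17%) had the same sign in all 3 endings. The genes that were higher include Bcl2, Bcl2a1b and follicular markers. Those that were lower include B cell surface proteins and the transcription factor Spib. The p-values measure how alike the 3 libraries are, which come from different groups. The median depth of the 2 classes was close (3853, 3856 and 3515.5 UMIs in the Vpreb3 B cells).

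Among receptors of lymphocyte traffic, the lymph node chemokine receptor Ccr7 stood at 234, 242 and 254 CPM in the described cells against 185, 264 and 228 CPM in Vpreb3 B cells (log2 difference 0.17 ± 0.10), and the egress receptor S1pr1 at 112, 134 and 108 against 134, 120 and 108 CPM (-0.04 ± 0.11). Neither passed the test, and the sign of both varied between endings.

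Survival genes were represented by Bcl2, the anti-apoptotic regulator, which stood at 191, 272 and 247 CPM in the described cells and 122, 202 and 195 CPM in Vpreb3 B cells. The log2 difference was 0.50 ± 0.10 (edgeR adjusted p = 0.00127), with the described cells higher in each ending. Its relative Bcl2a1b was higher by 0.89 ± 0.23 at a lower level (24.8, 28.9 and 27.3 CPM). Bcl2a1b belongs to a family of near-identical copies among which reads may be split, so its value is uncertain. These 2 were the only survival and apoptosis genes of 15 tested to pass, both upward, beside 33 of 7358 (0.448%) higher over all genes. The median log2 difference of the 15 was 0.03, and 9 of them were positive, so the list did not move as a whole. In the opposite direction, Tnfrsf13c, the BAFF receptor through which mature B cells receive their survival signal, stood at 214, 248 and 242 CPM against 298, 362 and 352 CPM, lower by a log2 difference of -0.49 ± 0.09 (edgeR adjusted p = 0.000334).

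The follicular markers were higher in the described cells in every ending. The log2 differences were 0.52 ± 0.10 for Fchsd2, 0.47 ± 0.09 for Mef2c, 0.43 ± 0.09 for Fcmr and 0.41 ± 0.10 for Ighd. These 4 are among the 33 genes counted above, while H2-Ob, at 0.22 ± 0.10, did not pass. Since the list was proposed on these data, its direction is not independent evidence. Ighm, the IgM constant region, differed by -0.30 ± 0.08 in the described cells and was lower in each ending.

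Of the genes that were lower, several encode surface and regulatory proteins of B cells. Ms4a1 (CD20) stood at 1012, 858 and 949 CPM against 1834, 1342 and 1420 CPM in Vpreb3 B cells, with no overlap between the classes (log2 difference -0.67 ± 0.09, edgeR adjusted p = 1.58e-07). Ly6d, a surface marker of B lineage commitment, stood at 1735, 1523 and 1794 against 3006, 2469 and 2798 CPM (-0.68 ± 0.08). Spib, an ETS-family transcription factor, stood at 138, 144 and 173 against 306, 185 and 256 CPM (-0.73 ± 0.10). Of 24 B cell transcription factors tested, Spib was the only one lower and Mef2c the only one higher. Over all genes 0.720% were lower and 0.448% higher, which a list of this size does not set apart.

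Large decreases by the rule for named genes were in genes of low level. Pld4, an endolysosomal nuclease, stood at 60.2, 61.8 and 50.4 against 119, 95.8 and 116 CPM. Fgd2, an activator of the GTPase Cdc42, stood at 49.2, 32.9 and 48.7 against 95.1, 96.9 and 70.7 CPM. In both genes the classes did not overlap. Akap12, a scaffold for protein kinase A, Fam129c, Hes1, a Notch target, Edaradd, E2f2, Lynx1 and Trim30d were lower by log2 differences from -1.50 (Akap12) to -0.86 (Trim30d). Of the markers of other cell types, 0 of 9 tested monocyte markers passed in either direction, with a median log2 difference of -0.21, and 0 of 11 neutrophil markers passed, with a median of -0.61. Lists of this size do not set these counts apart from the 1.17% called over all genes. All 11 neutrophil markers had a negative difference, and their part in the result was not tested.

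Large increases were those of Tagap, a GTPase-activating protein of lymphocytes (0.88 ± 0.19), Tgif1, a repressor of TGF-beta signalling (0.81 ± 0.18), Gdf11, Ggct, Pikfyve, Gpr174, a receptor for lysophosphatidylserine, Ephx1, Rras2 and Stt3b. All 9 were higher in each ending, with levels under 90 CPM. Gpr174 stood at 78.1, 83.7 and 78.5 CPM against 50.9, 37.9 and 52.0 CPM in Vpreb3 B cells (0.74 ± 0.15).

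Chchd10, a mitochondrial protein gene, was lower by a log2 difference of -0.83 ± 0.09 (179, 259 and 246 against 385, 410 and 412 CPM). It lies beside Vpreb3 on the same strand of chromosome 10 (GRCm38, chr10:75933130-75937747 for Chchd10 and chr10:75943057-75949657 for Vpreb3). Vpreb3 defines the classes, and whether the neighbouring genes share reads was not tested.

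**Figure D3:**
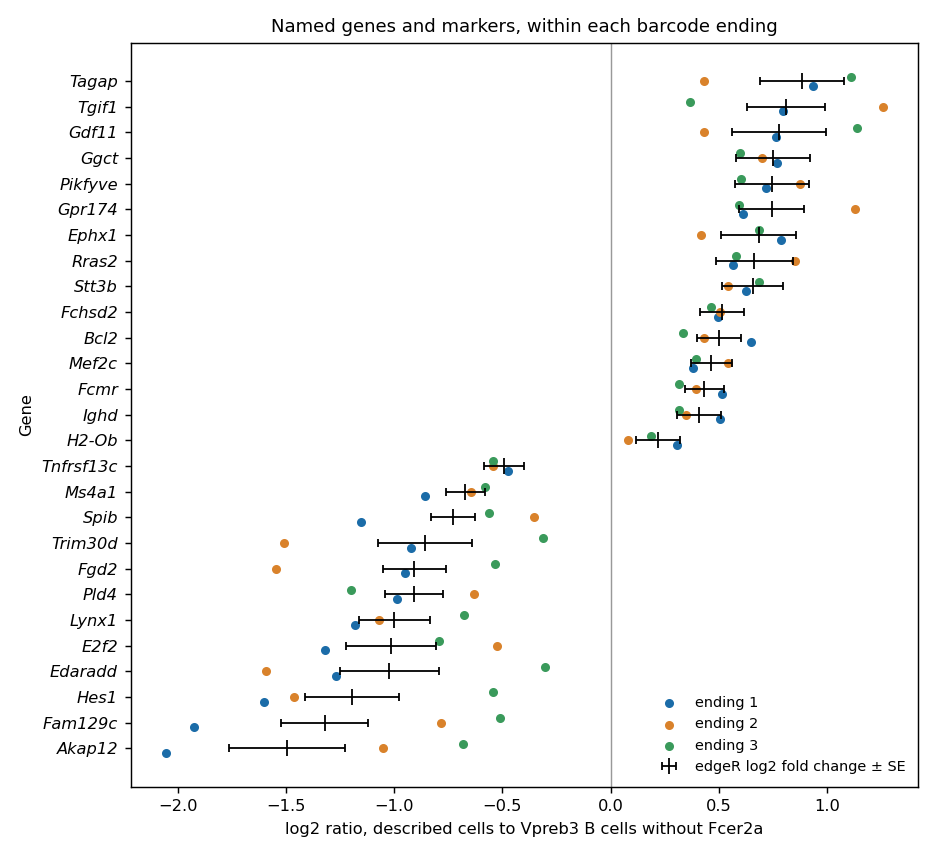
Log2 ratio of the described cells to Vpreb3 B cells without Fcer2a for 18 named genes, the markers and 4 list genes; coloured points are the 3 barcode endings and black bars the edgeR log2 fold change ± SE. The points lie on 1 side of 0 for each gene shown, from Akap12 (-1.50) to Tagap (0.88), and H2-Ob (0.22) did not pass the test.

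Of 20 tested genes of B cell receptor signalling 0 were called in this contrast. Their median log2 difference was 0.00, the same as over all genes tested. For MHC class II, 0 of 11 genes passed, and the median was 0.18. Over all genes 86 of 7358 (1.17%) passed, a share from which lists of this size are not set apart. The calls rest largely on ending 1, which holds most of the cells: without it 21 genes passed in place of 86, 19 of them shared. Of the 18 genes given above as large increases and decreases, only Gpr174, Pld4 and Fgd2 then passed; of the other genes described with values in this contrast, Fchsd2, Mef2c, Ms4a1, Ly6d, Tnfrsf13c and Chchd10 also did, while Fcmr, Ighd, Ighm, Bcl2 and Spib did not. DESeq2 called 46 genes, 27 of them shared, and none of these 18 was among them. The direction was the same in all 84 called genes that could be fitted without ending 1. As 83 of the 86 already had the same sign in all 3 endings, this was largely set in advance.

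B cells that met every other limit but carried lambda light chain above kappa numbered 89, 31 and 22. With the same fit, 1 gene of 7358 (0.0136%) was higher in the described cells and 0 were lower. DESeq2 also called 1, and 334 genes had an unadjusted p under 0.05. The gene was Gm30211, a long noncoding RNA whose annotation spans Igkc on chromosome 6 (GRCm38, chr6:70719074-70740554; Igkc at chr6:70726435-70726966, both on the plus strand). It stood at 264, 266 and 260 CPM in the described cells and 73.8, 178 and 22.7 CPM in lambda cells, and no longer passed when ending 1 was left out. Its reads and those of Igkc cannot be told apart in full. Igkc against the lambda genes defines these 2 classes, so the call of Gm30211 is not independent of the rule. In data simulated at these summed UMIs the fit recovered 41% of genes changed 2-fold and 11% of genes changed 1.5-fold. Most differences of either size were therefore missed in the simulated data. The simulation changed only genes of at least 30 CPM and assumed the same spread between libraries for every gene. The share missed in the real data may differ.

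B-1-like cells, defined by at least 2 UMIs of Bhlhe41, Nid1 and Ccdc28b, numbered 94, 34 and 67 and were deeper (median 7180.5, 6914 and 6486 UMIs). No limit on Fcer2a, Vpreb3 or the light chain was set for them. As means over endings, Fcer2a stood at 197 CPM in them against 626 in the described cells, and Vpreb3 at 244 against 0 CPM. The part of this difference in the calls was not tested. Against them 252 genes (3.42%) were higher and 347 (4.72%) lower in the described cells, 599 in all (8.14%). MHC class II genes were higher in 10 of 11 tested, with a median log2 difference of 0.47. H2-Aa, which encodes a class II alpha chain, had 4270, 4172 and 4547 CPM in the described cells and 3132, 2934 and 2785 CPM in B-1-like cells (0.57 ± 0.08, edgeR adjusted p = 4.51e-07). Satb1, a chromatin organiser, was higher by 1.29 ± 0.16. Of the B-1 genes 7 of 8 tested were lower, and S100a6, a calcium-binding protein, stood at 68.7, 150 and 99.0 against 533, 732 and 867 CPM, a call lost without ending 1 and with thinned UMIs. Monocyte markers were lower in 5 of 9 tested, among them Ccr2 and Ly6c2, and platelet genes higher in 9 of 10, with Pf4 at 2152, 939 and 1163 against 1192, 508 and 665 CPM. The part of these other cell types in the contrast was not tested. Restricting both classes to cells of 2000 to 6000 UMIs gave 40 calls in place of 599, 34 of them shared, and the rule applied to cells thinned to 2000 UMIs gave 28, 22 of them shared. Without ending 3, 322 passed.

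Across endings, a gene was called variable when the lower bound of the ratio of its highest to its lowest ending was at least 1.5, among 3367 genes that reached 50 UMIs and 30 CPM in their highest ending. By this measure 121 genes (3.59%) varied, or 119 of 3358 without the genes of the rule. With the genes of the rule left out, none of 12 B cell receptor and co-receptor genes, 19 receptor signalling genes, 11 MHC class II genes, 78 ribosomal protein genes or 13 mitochondrial transcripts was among them. Other B cell lists held called genes. Of 23 B cell transcription factors 1 was called, Id2, at 30.9, 23.9 and 5.97 CPM in 26, 8 and 5 cells. A single cell held 20.3%, 45.8% and 42.9% of the Id2 UMIs in endings 1, 2 and 3. Of 14 homing and egress genes 2 were called, Cxcr4 (described below) and Itgb1, an integrin chain, at 115, 53.8 and 65.7 CPM. Itgb1 had the ending order of the summed platelet list given below, and the part of platelet transcripts in its value was not tested. Of 6 transitional B cell genes 2 were called, Sox4 (below) and Cd9, a tetraspanin that platelets also carry, at 1838, 905 and 937 CPM. Pax5, the B cell identity factor, stood at 298, 272 and 265 CPM. Ccr7 stood at 234, 242 and 254 CPM, a spread whose ratio had a lower bound below 1. The counts were 0 of 10 for immediate early genes, 0 of 12 for heat shock genes and 0 of 10 for NF-kappaB genes, which lists of this size do not set apart from the 3.59% over all genes. Clock genes were too low to be tested (9 measured, 0 tested).

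Of the 8 tested members of the glucocorticoid-induced list, 4 were called, all 4 lowest in ending 1. Over all genes, 32 of 3367 (0.950%) were called with ending 1 as the lowest. The list was written with earlier results of these data known, so this count is not independent evidence. It also holds the receptor gene Nr3c1 and the chaperone gene Hsp90ab1, given below. On the list of 19 genes, 15 held at least 20 UMIs. Tsc22d3, which encodes the glucocorticoid-induced leucine zipper GILZ, stood at 273 CPM (258 to 289) in ending 1, 818 (763 to 876) in ending 2 and 689 (642 to 738) in ending 3. It was found in 645 of 1082, 235 of 260 and 267 of 323 cells, and in 40.8%, 80.5% and 70.6% of cells at 2000 UMIs. The highest to lowest ratio was 3.00 (2.74 to 3.28), and the 3 intervals do not overlap. No single cell held more than 2.19% of these UMIs in any ending.

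Cxcr4, the receptor for CXCL12 that retains cells in bone marrow, stood at 64.7 (57.4 to 72.6), 208 (181 to 238) and 177 CPM (153 to 202), a ratio of 3.22 (2.68 to 3.86). Ending 1 was low, and endings 2 and 3 overlapped. Pik3ip1, an inhibitor of PI3-kinase, stood at 46.1, 121 and 146 CPM, a ratio of 3.17 (2.57 to 3.90). Txnip, the thioredoxin-interacting protein that limits glucose uptake, stood at 233, 430 and 438 CPM, a ratio of 1.88 (1.69 to 2.10). For both genes ending 1 was again the low one and the other two overlapped.

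The remaining tested members of the list were not called. Btg2, an antiproliferative gene, stood at 308, 466 and 449 CPM (ratio 1.51, lower bound 1.36) and Btg1, its relative, at 1064, 1318 and 1344 CPM. Hsp90ab1, a chaperone of the glucocorticoid receptor, stood at 862, 728 and 749 CPM, and Nr3c1, the receptor itself, at 85.7, 67.8 and 72.6 CPM, so these 2 were highest in ending 1. Known targets under the UMI minimum included Ddit4, an mTOR inhibitor, with 40, 47 and 46 UMIs (8.95, 46.8 and 39.3 CPM). Fkbp5, a receptor co-chaperone also under it, had 26, 16 and 21 UMIs (5.82, 15.9 and 17.9 CPM). Both were lowest in ending 1. The other list genes under the minimum are not given, so these 2 do not show the direction of the rest. Over the measured list the median log2 deviation from the mean of the endings was -0.48, 0.29 and 0.16, beside -0.01, 0.03 and -0.01 over all genes.

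Ending 1 was also the lowest outside the described cells. In Vpreb3 B cells without Fcer2a, Tsc22d3 stood at 293, 868 and 783 CPM and Cxcr4 at 61.1, 223 and 149 CPM. In T cells, Tsc22d3 stood at 204, 423 and 401 CPM, Txnip at 231, 493 and 497 CPM, Cxcr4 at 30.4, 58.8 and 45.4 CPM and Pik3ip1 at 141, 216 and 206 CPM. TMM scaling moved log2 values of the described cells by at most 0.03 in either direction, and under the alternative settings that gave a value the highest to lowest ratio stayed between 2.88 and 3.53 for Tsc22d3, 2.91 and 3.44 for Cxcr4, 3.14 and 3.69 for Pik3ip1, and 1.87 and 1.96 for Txnip.

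**Figure D4:**
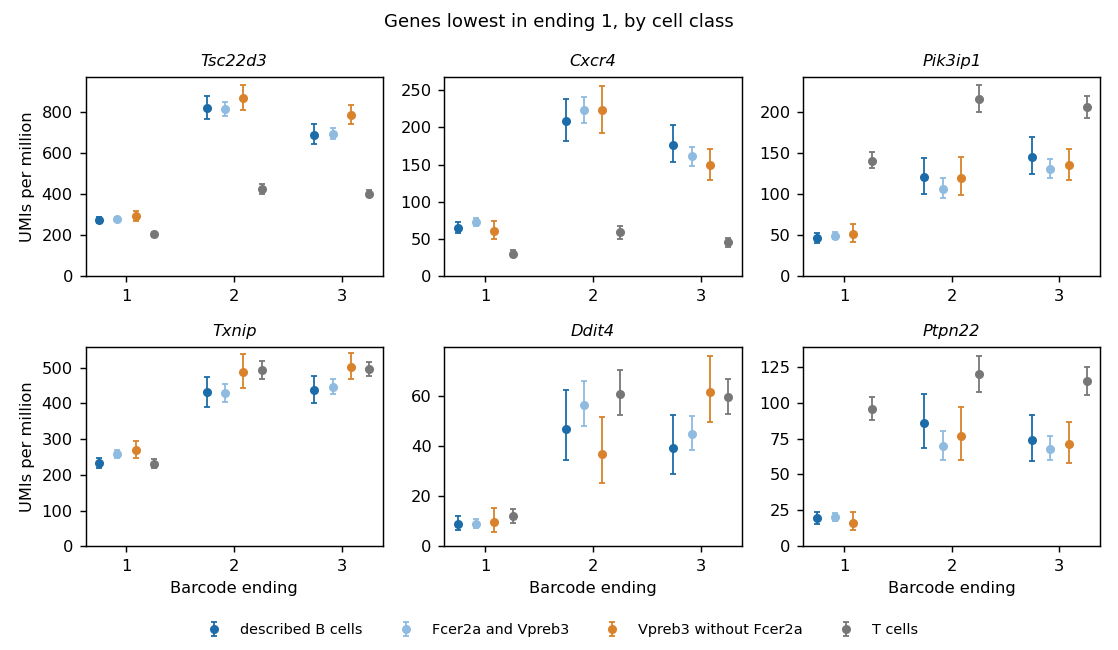
Level (CPM, linear axes from 0) of 6 genes in 4 cell classes by barcode ending, with exact 95% Poisson intervals. The genes drawn are ones lowest in ending 1 in the described B cells (dark blue), at 273 CPM against 818 and 689 for Tsc22d3 and 19.5 against 85.7 and 74.3 for Ptpn22. List genes that were highest there, such as Nr3c1, are not drawn.

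The 4 called genes of the glucocorticoid-induced list share their low ending, and the receptor acts on DNA motifs. For these genes the 250 bases before each RefSeq transcription start (GRCm38.p6) were therefore read. This gave 6 windows, since Tsc22d3 has 3. The start of 1 Tsc22d3 window was not found in the GENCODE transcript annotation, and that window held no motif searched. The full palindromic glucocorticoid response element, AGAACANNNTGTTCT, was in none of the windows, and in 0.00913% of 32851 windows of the genome. The 6-base site that forms each arm of it, AGAACA or the reverse complement TGTTCT, was in the windows of Cxcr4 and of 1 Tsc22d3 start, and in 16.1% of all windows. The FOXO motif GTAAACA or its reverse complement was in the Txnip window, and in 3.17% of all. An E-box (CACGTG, in 6.02% of all windows) and a cAMP response element (TGACGTCA, in 1.55%) were in none of them, and the Pik3ip1 window held no motif searched. The 6-base site is itself part of the full element. Matches are letters in a window and not evidence of binding, and receptor sites can lie far from a start. The 3 windows with a match are shown 5′ to 3′ on the strand of the gene, with the match in capitals: Cxcr4 at chr1:128592300-128592549 (minus), Tsc22d3 at chrX:140600523-140600772 (minus, reverse complement of the 6-base site) and Txnip at chr3:96557707-96557956 (plus).
Cxcr4: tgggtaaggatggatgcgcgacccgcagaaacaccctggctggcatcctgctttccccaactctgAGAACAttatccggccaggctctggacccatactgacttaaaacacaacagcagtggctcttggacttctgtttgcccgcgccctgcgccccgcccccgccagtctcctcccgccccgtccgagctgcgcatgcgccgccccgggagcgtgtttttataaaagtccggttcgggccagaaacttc
Tsc22d3: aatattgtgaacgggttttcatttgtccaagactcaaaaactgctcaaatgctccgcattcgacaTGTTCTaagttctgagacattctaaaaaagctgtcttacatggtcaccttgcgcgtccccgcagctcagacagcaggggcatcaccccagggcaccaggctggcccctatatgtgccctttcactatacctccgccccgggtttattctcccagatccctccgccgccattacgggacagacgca
Txnip: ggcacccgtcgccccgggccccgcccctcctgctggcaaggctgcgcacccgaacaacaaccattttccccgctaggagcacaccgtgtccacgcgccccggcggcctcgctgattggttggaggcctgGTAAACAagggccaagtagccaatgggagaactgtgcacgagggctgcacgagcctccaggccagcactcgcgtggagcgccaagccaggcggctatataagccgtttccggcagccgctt

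Other genes low in ending 1 were found across many cells. Ptpn22, a phosphatase that dampens antigen receptor signalling, stood at 19.5, 85.7 and 74.3 CPM, with 79, 63 and 72 cells holding a UMI and a ratio of 4.40 (3.23 to 6.0). Ppp1r21, a regulatory subunit of protein phosphatase 1, stood at 23.1, 47.8 and 77.7 CPM. Zfp36l2, an RNA-binding protein that shortens mRNA lifetime, stood at 164, 344 and 283 CPM. Rbm3, a cold-inducible RNA-binding protein, stood at 250, 293 and 425 CPM, and Ly6a (Sca-1), the only interferon-stimulated gene called of 12 tested, at 266, 320 and 499 CPM. Sox4, a transcription factor of early B cells, stood at 31.3, 94.7 and 72.6 CPM in the described cells. In all B cells its level was 41.8, 62.9 and 40.9 CPM, in which ending 1 was not the lowest.

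Markers of other blood cells were also among the variable genes. Of the 121 called genes, 82 (2.44% of genes tested) were highest in ending 1, and 8 of 9 tested platelet genes were called. Pf4, a platelet chemokine, stood at 2152, 939 and 1163 CPM and was found in 1065 of 1082, 214 of 260 and 276 of 323 cells. In T cells it stood at 1350, 580 and 626 CPM. The summed platelet list stood at 6502, 2731 and 3350 CPM. Neutrophil genes went the opposite way, with a summed list at 386, 1625 and 1227 CPM. The erythroid list stood at 2158, 6502 and 6308 CPM, but a single cell held 86.1% of its UMIs in ending 2. Without the cell with most UMIs of the list in each ending, a step chosen after the data were seen, the erythroid list stood at 1833, 913 and 4455 CPM, so that ending 2 and not ending 1 was the lowest. The neutrophil list then stood at 267, 1419 and 1194 CPM and the platelet list at 6456, 2655 and 3306 CPM, in the order above. The part of these transcripts in the other values by ending was not tested. In total 25 of the 121 were on the lists of other cell types, S100a8 and S100a9 of the rule included.

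Apart from Ptpn22, the 12 genes with the widest ratios were of this kind or rested on few cells. Gzma, the granzyme of cytotoxic lymphocytes, had 576, 46 and 3 UMIs in 34, 3 and 3 cells. Ccl5, a cytotoxic lymphocyte chemokine, had 1203, 30 and 10 UMIs, and 1 cell held 90.0% of those in ending 2. Nkg7, Ccl4, Fn1, Ccr2, Hp, Chil3, Ifitm1 and F13a1 each had an ending in which 1 cell held more than 45% of the UMIs. Retnlg, a neutrophil gene, was found in 15, 43 and 82 cells. Ptpn22 was the one gene of the 12 in which no cell held more than 4.65% of the UMIs. Described cells with 3 or more UMIs of a set of T cell, NK cell, monocyte and neutrophil genes numbered 25, 5 and 4. That set held no platelet or erythroid gene and left out Lyz2, S100a8, S100a9 and Retnlg. It therefore does not address cells with transcripts of these. Leaving the 25, 5 and 4 cells out, an alternative chosen after the data were seen, gave 98 called genes, 94 of them among the 121. The ratios of Tsc22d3, Cxcr4, Pik3ip1 and Txnip were then 2.99, 3.31, 3.17 and 1.91.

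**Figure D5:**
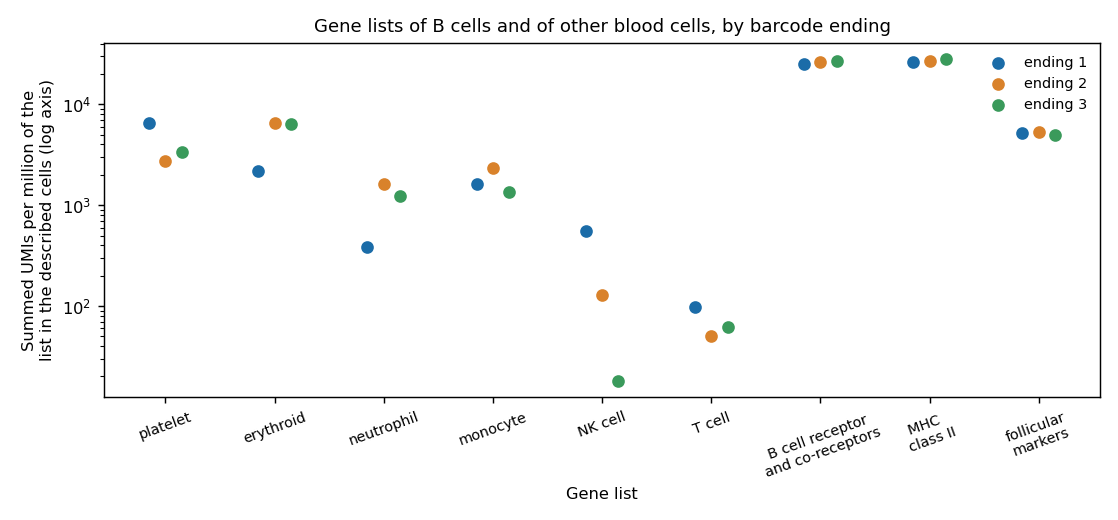
Summed level (CPM, log axis) of 9 gene lists in the described cells, with 1 point per barcode ending. The platelet list was highest in ending 1 (6502 CPM), the neutrophil list was lowest there (386 CPM), the erythroid value of ending 2 (6502 CPM) came for 86.1% from 1 cell and is 913 CPM without it, and the B cell receptor, MHC class II and follicular lists lay close together in the 3 endings.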

How the data were processed

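The authors deposited raw counts of UMIs per gene and barcode, not normalised, in 1 matrix of 31053 genes. Per the file headers the matrix was written by Cell Ranger 6.0.2. Tools listed in the submitters' processing notes are Cell Ranger 4.0.0, Seurat 3.0, Trimmomatic 0.39 and R 4.0.2, with the build GRCm38. The version that set the counts was not settled, and how cell barcodes were chosen is not stated in the sources used here. The members, gene lists and tests were chosen with earlier results of these data known.

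Cells were selected on raw UMIs. UMIs were summed per class and barcode ending. Differences between endings are ratios of summed UMIs with exact conditional intervals, levels have exact Poisson intervals and shares exact binomial (Clopper-Pearson) intervals, all at 95% and for counting error only. List genes with at least 20 UMIs over the endings count as measured. A gene at 0 UMIs was set against a floor of 3 UMIs. The 4 classes (described, Vpreb3, B-1-like and lambda B cells) in 3 endings were fitted with edgeR 4.0.16 (TMM, filterByExpr, ending as block) in R 4.3.3, with DESeq2 1.42.0 as an alternative. The fit was tested on simulated data: of genes changed 2-fold, 89% were recovered against Vpreb3 B cells, and of genes changed 1.5-fold, 32% (7312 genes). The spread between libraries in these simulated data was assumed and not estimated from the cells. No doublets were removed in the main values. Scrublet in scanpy 1.11.5 marked only 0.0983% of ending 1 at its automatic threshold, so as an alternative about the top 6% of scores per ending were left out.

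Genes named in the text are, for the spread over endings, the 12 with the largest lower bound, and for each class contrast the 10 highest and 10 lowest log2 fold changes among called genes of at least 30 CPM with the same sign in 3 endings, without genes of the rule, immunoglobulin, haemoglobin and unnamed models. Some genes that met the rule are not reported here. Added to the rest were the markers, the most abundant members of each list and list genes that were called. Chchd10, Ly6d, Gm30211, Ppp1r21, Zfp36l2 and Rbm3 were chosen after their values were seen.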

Additional observations from a re-analysis of the deposited data

How the results depend on the processing

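The share of described cells among B cells was 31.4%, 21.8% and 18.7% in endings 1, 2 and 3 with the rule on thinned UMIs, and 18%, 11.3% and 8.27% with at least 2 Fcer2a UMIs; a 5% mitochondrial limit gave 15.9% in ending 2. The 121 genes called over endings became 185 at 20 UMIs and 10 CPM, 77 at the 5% limit and 52 at a ratio of 2. Against Vpreb3 B cells the 86 calls became 46 with DESeq2, 286 with only the 2 classes fitted, 144 in cells of 2000 to 6000 UMIs, 52 with the rule on thinned UMIs, 27 with no block, and 157 with B-1-like cells left out of the fit (chosen after seeing the data); leaving out 1 library gave 21 (without the library of ending 1) to 112. Against B-1-like cells the 599 calls became 40 at 2000 to 6000 UMIs, 28 thinned and 306 with no block; leaving out 1 library gave 322 to 511. Against lambda cells the 1 call became 6 with no filter, 3 with only the 2 classes, 3 without likely doublets, and 0 to 3 leaving out 1 library. No named gene that passed the threshold changed sign in the settings tried. The rule for named genes already asked for the same sign in 3 endings, so leaving out 1 library could hardly reverse them. Among all calls against B-1-like cells 447 of 505 that could be fitted kept their sign at 2000 to 6000 UMIs, 360 of 463 thinned and 592 of 593 without the library of ending 3. The cause of these changes was not tested. No paired analysis was possible because the labels give no replicate numbers and each group is 1 library; this concerns the groups, while the class comparisons have the ending as a block. The small classes limit depth: 22 to 94 lambda or B-1-like cells per ending.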

Other observations

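Genes on the lists of other B cell subsets were in part detected in the described cells. At least 20 UMIs over the endings were held by 2 of 10 germinal centre genes, 7 of 11 plasma cell genes, 8 of 12 marginal zone genes, 8 of 14 transitional genes and 10 of 17 B-1 genes, beside 9476 of all 31053 genes. Cd93, a marker of transitional B cells, held 38, 13 and 8 UMIs (8.51, 13 and 6.83 CPM). Cd24a, another marker that falls with B cell maturation, stood at 167, 154 and 153 CPM, and Cr2 (CD21), higher in marginal zone than in follicular B cells, at 152, 107 and 108 CPM; neither was called over endings. The summed interferon-stimulated list stood at 4029, 4536 and 5122 CPM, in cells from which those with more than 2 UMIs of 6 such genes had been removed by the rule.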
